A study of Mus musculus with 14 samples.

Results

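The mouse genome carries a long series of genes named Zfp followed by a number, most of which encode zinc finger proteins. A gene was counted here as a member when its symbol was Zfp, a number and at most a short suffix, it was annotated as protein-coding, and it had at least 10 counts in at least 3 of the 14 libraries. Of 52636 identifiers in the count table, 407 had such a symbol and 394 of these were protein-coding. Of the 394, 254 were members, 22 had no count in any library and 118 had counts but fell under the minimum. The members were thus chosen by their counts in these same libraries, and a gene could enter through the groups in which it was high: 30 members had 10 counts in no AG120 library, whereas 0 lacked them in every vehicle library and 2 lacked them in every relapse library. All 14 libraries reached 10 counts for 133 members. Just inside the minimum lay Zfp974, Zfp273 and Zfp934, with 73, 80 and 86 counts in all, and just outside it lay Zfp59, Zfp667 and Zfp955a, with 105, 98 and 92 counts in all, which had reached 10 counts in only 2 libraries.

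RNA came from leukemic progenitors of mice transplanted with I1DN cells, the labels' name for the leukemia, whose alleles they do not spell out; the series title gives it as acute myeloid leukemia with mutant IDH1. Mice of the relapse group (n = 4) received AG120 for 28 days and then relapsed. AG120 (ivosidenib), an oral inhibitor of mutant IDH1, was given for 5 days (n = 3) or 14 days (n = 2), and vehicle for 5 days (n = 3) or 14 days (n = 2). The cells sorted from each mouse carried cKit and lacked CD11b. Their RNA was sequenced with the QuantSeq 3′ kit, which reads a message close to its poly(A) tail, and a long message therefore yields no more counts than a short one.

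The classical C2H2 zinc finger is a short loop held by a zinc ion, and rows of such fingers read DNA base by base. Many of these proteins also carry a KRAB domain at the amino-terminal end, through which they recruit the corepressor TRIM28 and the histone methyltransferase SETDB1 and silence retroelements and nearby genes. A smaller number bind RNA instead, among them the CCCH fingers of the ZFP36 family, which bind AU-rich elements and call in the CCR4-NOT deadenylase to destroy messages for cytokines and cell cycle regulators. In blood, single members act in stem cell maintenance, in erythroid and megakaryocyte development and in lymphocytes.

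Sequence was read from the longest open reading frame of each member's annotated transcripts. A KRAB-like pattern was found in 125 members and in 129 it was not. The median number of C2H2 fingers was 10, the highest 40. Only 5 members had 0 C2H2 fingers, namely Zfp36, Zfp36l1 and Zfp36l2, which have CCCH fingers, Zfp703 and Zfp330. Members lay on 20 chromosomes, with 64 on chromosome 7, 31 on chromosome 17 and 26 on chromosome 13. Related members in these clusters share sequence, so that reads may be split between them, and 32 members overlapped, in their exons, another gene with at least 0.5 times their counts; among those described below these were Zfp276, Zfp335, Zfp143, Zfp36l1, Zfp410, Zfp593 and Zfp90, each overlapping a gene on the other strand. Whether counting used strand is not given in the sources used here, so reads of these members and their partners cannot be told apart.

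Upstream sequences are shown for 3 members that passed the tests at both days of treatment, because they span the directions seen and because the start in the RefSeq promoter table coincided with the 5′ end of the gene model. Each run is the 250 bases before the transcription start, 5′ to 3′ on the gene's strand, from RefSeq GRCm38.p6, with CG dinucleotides in capitals. The Zfp710 sequence is chr7:80024564-80024813 on the plus strand, the Zfp358 sequence chr8:3492888-3493137 on the plus strand, and the Zfp800 sequence chr6:28398006-28398255 on the minus strand. Zfp710 and Zfp358 fell under AG120 and Zfp800 rose.
Zfp710: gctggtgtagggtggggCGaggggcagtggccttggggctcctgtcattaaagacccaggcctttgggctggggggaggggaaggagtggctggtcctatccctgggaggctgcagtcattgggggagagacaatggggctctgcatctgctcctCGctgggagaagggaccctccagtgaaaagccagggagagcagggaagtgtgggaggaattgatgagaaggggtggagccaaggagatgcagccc
Zfp358: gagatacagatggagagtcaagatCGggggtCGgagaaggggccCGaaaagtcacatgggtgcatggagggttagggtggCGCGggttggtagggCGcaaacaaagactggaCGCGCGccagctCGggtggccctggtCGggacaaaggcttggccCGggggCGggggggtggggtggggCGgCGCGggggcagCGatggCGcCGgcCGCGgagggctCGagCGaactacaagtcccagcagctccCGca
Zfp800: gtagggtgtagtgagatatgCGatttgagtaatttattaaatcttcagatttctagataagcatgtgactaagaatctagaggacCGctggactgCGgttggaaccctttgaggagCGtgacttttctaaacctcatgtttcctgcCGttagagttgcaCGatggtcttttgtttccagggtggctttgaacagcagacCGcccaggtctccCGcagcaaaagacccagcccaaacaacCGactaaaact
The 3 sequences differ in composition: Zfp358 had 24 CG dinucleotides and 69.2% G or C, Zfp800 had 9 and 46.4%, and Zfp710 had 2 and 62.4%, so that both members that fell lie at opposite ends of the range in CG. Short motifs were counted on both strands; none of those searched contains another. The letters GATAA, the core bound by GATA factors, occurred 1 time upstream of Zfp800 and 0 times upstream of Zfp710 and Zfp358. The letters CACCC, found in sites of KLF factors, occurred 5 times upstream of Zfp358 and 2 times upstream of each of the other sequences, and CCAAT occurred 1 time, upstream of Zfp710. Of 208 members with an entry in the promoter table, 13.9% had GATAA in this window, 50.5% CACCC, 14.4% TGTGGT (a core found in RUNX sites) and 46.2% CCAAT. Of all 16478 protein-coding genes in the table the shares were 20.4%, 53.8%, 12.2% and 36.0% in the same order. Among the 60 members with a sequence that passed as lower at either day, 16.7% had GATAA and 51.7% CACCC, and among the 12 that passed as higher, 16.7% and 58.3%. The median number of CG dinucleotides was 12 over members and 10 over all genes.

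Deposited totals ran from 4995738 to 8691708 counts per library, of which ribosomal RNA gene models took 50.9% to 74.8%. Outside those models, relapse libraries held between 1984490 and 3124293 counts. Libraries of AG120 held between 2275579 and 2578051 after 5 days and between 1259982 and 1978091 after 14 days, which was the least depth of any group. With vehicle, libraries held between 2516653 and 3358874 (5 days) and between 2436871 and 2627684 (14 days). Levels are given as CPM, the counts scaled to the size of the library after TMM normalisation. Kit, the receptor used in the sort, was present in every library. Its level lay between 18.9 and 52.0 CPM at relapse, between 23.6 and 33.1 CPM after 5 days of AG120, at 11.6 CPM in both libraries after 14 days, and between 33.5 and 37.8 CPM in vehicle of either day. Itgam, which encodes CD11b, was also read, at up to 53.5 CPM in relapse and at most 8.01 CPM in AG120. Over the 5 progenitor and sort markers (Kit, Cd34, Itgam, Ly6a and Flt3) the sum lay between 197.0 and 260.0 CPM at relapse, between 33.9 and 47.5 CPM after 5 days of AG120, where Ly6a was at 0, and between 22.4 and 26.0 CPM after 14 days, against 175.0 to 201.0 CPM over all vehicle libraries. Summed over 15 erythroid markers, none of them at 0, relapse libraries had between 82.8 and 490.0 CPM. The same sum lay between 644.0 and 789.0 CPM after 5 days of AG120 and between 1842 and 2095 CPM after 14 days, against 111.0 to 196.0 CPM over all vehicle libraries. Summed over 5 megakaryocyte markers, relapse libraries had between 78.2 and 272.0 CPM, AG120 libraries between 32.1 and 53.5 CPM (5 days) or between 67.5 and 75.9 CPM (14 days), and vehicle libraries between 220.0 and 309.0 CPM. Lower sums in AG120 than in vehicle were also seen for 4 further marker lists. Those of 6 monocyte and macrophage markers lay between 49.0 and 157.0 CPM at relapse and between 14.9 and 21.8 CPM in AG120, against 49.8 to 66.4 CPM in vehicle. Those of 6 mast cell and basophil markers lay between 51.2 and 140.0 CPM at relapse, between 52.4 and 62.3 CPM after 5 days of AG120 and between 18.4 and 25.4 CPM after 14 days, against 124.0 to 148.0 CPM in vehicle. Those of 6 T and NK markers lay between 28.1 and 39.7 CPM at relapse and between 3.88 and 12.2 CPM in AG120, against 36.0 to 45.1 CPM in vehicle, where Cd3e was at 0, as it was at relapse and after 14 days of AG120. The 11 granulocyte markers summed to between 730.0 and 2797 CPM at relapse, to between 469.0 and 509.0 CPM after 5 days of AG120, against 1235 to 2037 CPM in vehicle of that day, and to between 1451 and 1865 CPM after 14 days, against 1993 to 2097 CPM in vehicle of that day. The markers of B cells summed to at most 3.02 CPM and those of stromal and endothelial cells to at most 0.997 CPM in any library. Higher erythroid markers and lower markers of these other lineages and of the sort thus moved with AG120 against vehicle at both days, and their part in the results for the members was not tested. In bulk samples, fewer cells of a type and less RNA per cell cannot be told apart.

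Members together made up less than 1% of the counts outside ribosomal models in each library. Their share was 0.688%, 0.922%, 0.923% and 0.753% in relapse, 0.656%, 0.688% and 0.650% in AG120 day 5, 0.658% and 0.592% in AG120 day 14, 0.827%, 0.785% and 0.769% in vehicle day 5, and 0.790% and 0.762% in vehicle day 14. All 5 AG120 libraries were below all 5 vehicle libraries, and the relapse libraries ran from 0.688% to 0.923%, with replicate 1 level with the highest AG120 library and replicates 2 and 3 above every vehicle library. Relapse replicate 2 alone held the highest value of any library for 61 of the 254 members, and relapse replicate 3 for 39. How often each library was highest over all genes is not given here, so these counts are not read as a trait of the members.

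**Figure D1:**
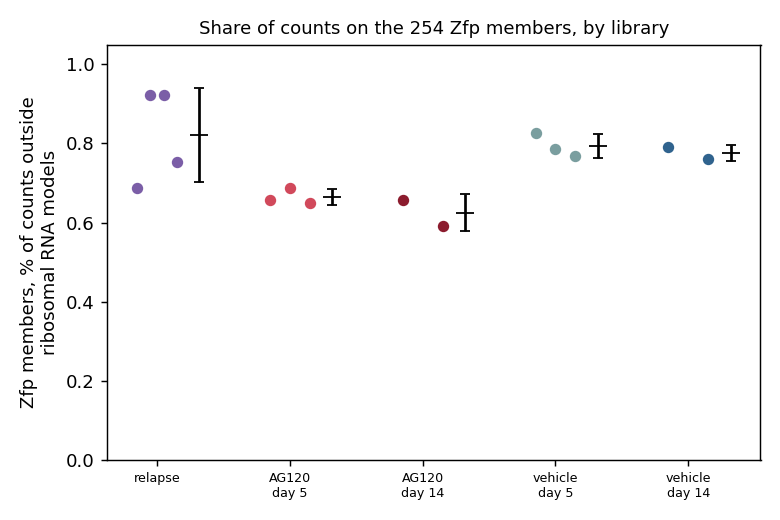
Share of counts outside ribosomal RNA models that fell on the 254 members, in percent (y axis, from 0), by library (points) in each group, with the group mean and SD beside the points. The AG120 libraries lie between 0.592% and 0.688%, below the vehicle libraries at 0.762% to 0.827%, and the 4 relapse libraries run from 0.688% to 0.923%.

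Most members were weakly expressed. The median over members of the mean level in the 14 libraries was 4.84 CPM, against 10.2 CPM over all 11994 genes tested; 176 members averaged under 10 CPM and 17 averaged at least 30 CPM. The members of highest mean level were Zfp36l2 (189.0 CPM), Zfp106 (131.0 CPM), Zfp207 (120.0 CPM), Zfp91 (111.0 CPM), Zfp292 (71.5 CPM) and Zfp638 (68.0 CPM). Zfp207 loads the checkpoint protein BUB3 onto kinetochores and Zfp638 takes part in silencing of retroviral DNA. Members with a KRAB-like pattern had a median of 3.02 CPM and 12 fingers, and those without it 9.66 CPM and 7 fingers.

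After 5 days of AG120, 48 members were lower and 12 higher than in vehicle day 5, of 250 that passed the filter of the test (edgeR quasi-likelihood test, Benjamini-Hochberg adjusted p under 0.05 over all genes). After 14 days 53 were lower and 10 higher. Over all 11994 genes tested, 39.4% passed at day 5 and 34.7% at day 14, and the calls were close to even: 20.1% were higher and 19.3% lower at day 5, and 16.8% were higher and 17.9% lower at day 14. The share of members called lower, 19.2% at day 5 and 21.2% at day 14, was thus near that background, whereas the share called higher, 4.8% at day 5 and 4.0% at day 14, was below it. The median log2 fold change of members was -0.29 at day 5 and -0.38 at day 14, against -0.00 and -0.01 over all genes tested. Of the members, 71.6% of 250 had a fold change below 0 at day 5, against 6000 of all 11994 genes. Of the 250 members, 22 passed as lower and 3 as higher with a change of at least 2-fold at day 5, and 36 and 4 at day 14. Of all 11994 genes tested, 1458 passed as lower and 849 as higher by that measure at day 5, and 1612 and 919 at day 14.

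The level and the counting minimum moved with this slant. Of the 133 members with 10 counts in all 14 libraries, 26 were lower and 11 higher at day 5, and 25 were lower and 10 higher at day 14, with medians of -0.17 and -0.22. Among genes with a mean log2 CPM under 2, 75.7% of 107 members and 61.7% of 3482 genes tested had a fold change below 0 at day 5; between 2 and 4 the shares were 70.7% of 99 members and 51.0% of 4044 genes, and at 4 or more 63.6% of 44 members and 40.0% of 4468 genes. Members were called less often at each level: 18 of 107 members against 1044 of 3482 genes, 25 of 99 against 1569 of 4044, and 17 of 44 against 2117 of 4468, in the same order. These shares are descriptions of the list, and no test of the list against other genes was made.

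The calls at the 2 days overlapped in part. Of 85 members that passed at either day, 38 passed at both, 33 lower at both, 5 higher at both and 0 in opposite directions. The same overlap over all genes is not given here, so these counts describe the members only. Another 22 passed at day 5 only and 25 at day 14 only, and 165 at neither day. In the test of the difference itself (AG120 effect at day 14 minus that at day 5, edgeR), 0 members passed in either direction, against 0.934% of all genes (0.208% higher and 0.725% lower); 18 members had an unadjusted p under 0.05, and DESeq2 and limma-voom also called 0.

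**Figure D2:**
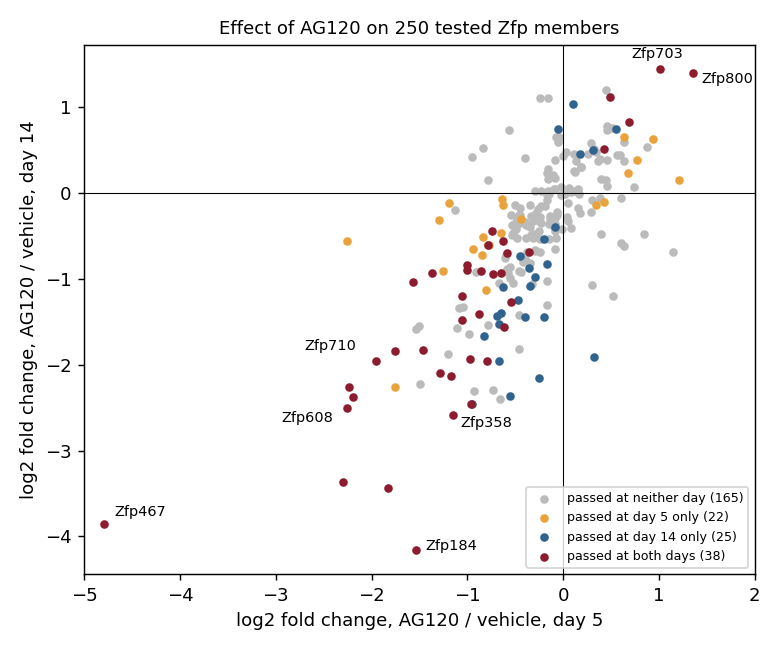
Each point is 1 of 250 tested members, by its log2 fold change of AG120 over vehicle at day 5 (x axis) and day 14 (y axis), coloured by the days at which it passed. The 38 members that passed at both days lie in the lower left (33) or the upper right (5), and Zfp467 and Zfp184, with very few counts in AG120 libraries, lie farthest out.

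Zfp518b was called lower at day 5 although its AG120 and vehicle libraries overlapped there. Its human counterpart binds the histone methyltransferase G9a, and Zfp518b had 3.50, 4.20 and 5.43 CPM in AG120 day 5 libraries, against 5.13, 8.18 and 9.35 CPM in vehicle day 5 libraries.

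Among members with a mean log2 CPM of at least 2, Zfp608 fell most at day 5. Zfp608 (chr18:54888048-54992555, minus strand), known in the mouse as a repressor of the Rag recombinase genes in thymocytes, had 7.31, 4.54 and 4.63 CPM in AG120 day 5 and 3.58 and 4.60 CPM in AG120 day 14, against 27.3, 26.5 and 22.1 CPM in vehicle day 5 and 22.3 and 21.0 CPM in vehicle day 14. The highest AG120 library lay far below the lowest vehicle library at both days. The log2 fold change was -2.19 (SE 0.23, adjusted p = 1.36e-06) at day 5 and -2.37 (SE 0.32, adjusted p = 2.26e-05) at day 14. In relapse it had 20.8, 35.6, 31.6 and 22.8 CPM, levels that overlapped those of vehicle.

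Zfp710 (chr7:80024814-80094173, plus strand), an 11-finger gene without a KRAB-like pattern, followed the same course. It had 5.79, 6.38 and 6.07 CPM in AG120 day 5 and 5.07 and 4.00 CPM in AG120 day 14, against 23.2, 24.9 and 22.5 CPM in vehicle day 5 and 17.9 and 16.9 CPM in vehicle day 14. Replicates were tight and well apart between treatments. The log2 fold change was -1.95 at both days (SE 0.18, adjusted p = 4.22e-07 at day 5; SE 0.26, adjusted p = 1.86e-05 at day 14).

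Zfp467 was close to lost under AG120. This 12-finger gene (chr6:48427697-48445825, minus strand), studied in marrow stroma for its part in the choice between fat and bone, had 3 counts in all in AG120 day 5, all of them in replicate 3, against 125 counts in vehicle day 5, where each library had 29 to 51. In AG120 day 14 it had 2 counts, against 52 in vehicle day 14. Scaled for library size, the level under AG120 was 3.22% of that in vehicle at day 5 (95% exact interval 0.654% to 9.62%) and 6.48% at day 14 (0.764% to 24.6%); these intervals cover counting error only. The gene passed at both days (edgeR, adjusted p = 6e-05 and 0.0045); the log2 fold change fitted at day 5 was -4.79, or -8.04 without AG120 day 5 replicate 3, and is not read as a size. In relapse its level was 3.97, 4.63, 10.5 and 4.20 CPM, against 4.13, 5.64 and 4.95 CPM in vehicle day 5 and 3.66 and 3.73 CPM in vehicle day 14. Zfp184, an 18-finger gene with a KRAB-like pattern that was singled out after its values were seen, had 2 counts in AG120 day 14, against 64 in vehicle day 14, or 5.26% of the vehicle level (95% exact interval 0.624% to 19.8%); at day 5 it had 19 counts, against 75 in vehicle, or 34.0% (19.4% to 56.8%).

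Several further members of low to middling level fell at both days. Zfp260 (chr7:30094777-30107622, plus strand), known from mouse heart as a partner of GATA4, had 4.57, 3.86 and 3.99 CPM in AG120 day 5, against 16.9, 13.6 and 11.9 CPM in vehicle day 5. At day 14 it had 3.88 and 2.60 CPM in AG120, against 11.0 and 11.7 CPM in vehicle. Its log2 fold changes were -1.76 (SE 0.28, adjusted p = 0.000114) and -1.84 (SE 0.39, adjusted p = 0.00161). Zfp523, the mouse counterpart of human ZNF76 and a relative of the promoter-binding factor ZNF143, had 9.14, 11.6 and 13.6 CPM in AG120 day 5 and 6.57 and 5.40 CPM in AG120 day 14, against 23.1, 22.5 and 21.7 CPM in vehicle day 5 and 18.6 and 26.5 CPM in vehicle day 14. No AG120 library reached the lowest vehicle library, and its log2 fold change was -0.97 at day 5 and -1.93 at day 14 (SE 0.20 and 0.28). Zfp143 itself did not pass at either day (log2 fold change -0.08, SE 0.15, and -0.29, SE 0.19).

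Zfp358 (chr8:3493138-3497208, plus strand) had 3.05, 3.36 and 2.40 CPM in AG120 day 5 and 1.19 and 1.00 CPM in AG120 day 14, against 6.69, 6.63 and 6.27 CPM in vehicle day 5 and 8.06 and 5.11 CPM in vehicle day 14. Its log2 fold change was -1.15 (SE 0.30, adjusted p = 0.00673) at day 5 and -2.58 (SE 0.48, adjusted p = 0.000564) at day 14, but the difference between the days was not called. Zfp629, with 19 fingers, fell by 1.46 (SE 0.33) and 1.83 (SE 0.47) on the log2 scale; the day 14 value had an adjusted p of 0.0539 with limma-voom and of 0.0607 without AG120 day 14 replicate 1. Zfp1, with a KRAB-like pattern, fell by 1.37 (SE 0.24) at day 5 and by 0.93 (SE 0.33) at day 14. Its day 14 call did not stand with DESeq2 (adjusted p = 0.0687) or limma-voom (0.0768). The day 14 value was -0.63 without replicate 2 of AG120 and -0.68 without replicate 2 of vehicle. Zfp518b fell by 0.80 (SE 0.29) and 1.95 (SE 0.42). Its day 5 call did not stand when replicate 1 or 2 of AG120 was left out (adjusted p = 0.148 and 0.101) or replicate 2 or 3 of vehicle (0.108 and 0.166), nor with the replicate number as a block (0.0555), and at day 14 the value was -1.23 with an adjusted p of 0.0593 without AG120 day 14 replicate 2, and -2.93 without replicate 1.

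The members that rose were fewer, and most of those named lacked a KRAB-like pattern. Zfp800 (chr6:28239927-28398005, minus strand), which is needed in the mouse for development of the pancreas, had 38.2, 35.6 and 37.8 CPM in AG120 day 5 and 48.1 and 45.0 CPM in AG120 day 14, against 14.5, 14.4 and 14.6 CPM in vehicle day 5 and 17.3 and 17.8 CPM in vehicle day 14. Every AG120 library was above every vehicle library by a wide margin. The log2 fold change was 1.36 (SE 0.12, adjusted p = 1.9e-07) at day 5 and 1.40 (SE 0.15, adjusted p = 1.55e-06) at day 14.

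Zfp703 (chr8:26977325-26981461, plus strand), a transcriptional corepressor known as an oncogene of luminal breast cancer, had 13.6, 13.6 and 12.8 CPM in AG120 day 5 and 15.8 and 16.0 CPM in AG120 day 14, against 6.69, 6.30 and 6.82 CPM in vehicle day 5 and 6.01 and 5.67 CPM in vehicle day 14. Its log2 fold change was 1.01 (SE 0.18, adjusted p = 0.000393) and 1.45 (SE 0.24, adjusted p = 0.00017). Zfp639 (chr3:32510259-32520833, plus strand), whose human counterpart lies in a region gained in squamous cancers, had 33.1, 42.0 and 37.7 CPM in AG120 day 5 and 41.5 and 46.4 CPM in AG120 day 14, against 24.8, 20.3 and 25.0 CPM in vehicle day 5 and 23.6 and 25.8 CPM in vehicle day 14. The log2 fold change was 0.69 (SE 0.13, adjusted p = 0.000631) and 0.83 (SE 0.17, adjusted p = 0.000907). Both genes rose without overlap between the groups at either day.

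Of the 3 members with a KRAB-like pattern that were higher at day 5, Zfp568 was the one that was also higher at day 14. It silences a placental transcript of Igf2 in the mouse, and it had 15.8, 18.6 and 16.9 CPM in AG120 day 5 and 27.5 and 19.4 CPM in AG120 day 14, against 11.4, 12.5 and 12.6 CPM in vehicle day 5 and 13.2 and 8.15 CPM in vehicle day 14. The log2 fold change was 0.49 (SE 0.19, adjusted p = 0.0475) at day 5, a call that did not stand with DESeq2 (adjusted p = 0.0851) or when any 1 of the day 5 libraries was left out, and 1.12 (SE 0.24, adjusted p = 0.00163) at day 14. Of 10 members and relatives listed for silencing of repeats or imprinted genes, 6 were tested and Zfp568 was the only one that passed, at either day. Over all genes tested, 39.4% passed at day 5 and 34.7% at day 14, and 6 genes are too few to set against these shares. Zfp39 rose by 0.94 (SE 0.24) at day 5 and Zfp821 by 1.04 (SE 0.30) at day 14. The Zfp821 call did not stand with no filter on low counts (adjusted p = 0.105), nor without replicate 2 of AG120 (0.183) or replicate 1 of vehicle (0.094).

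**Figure D3:**
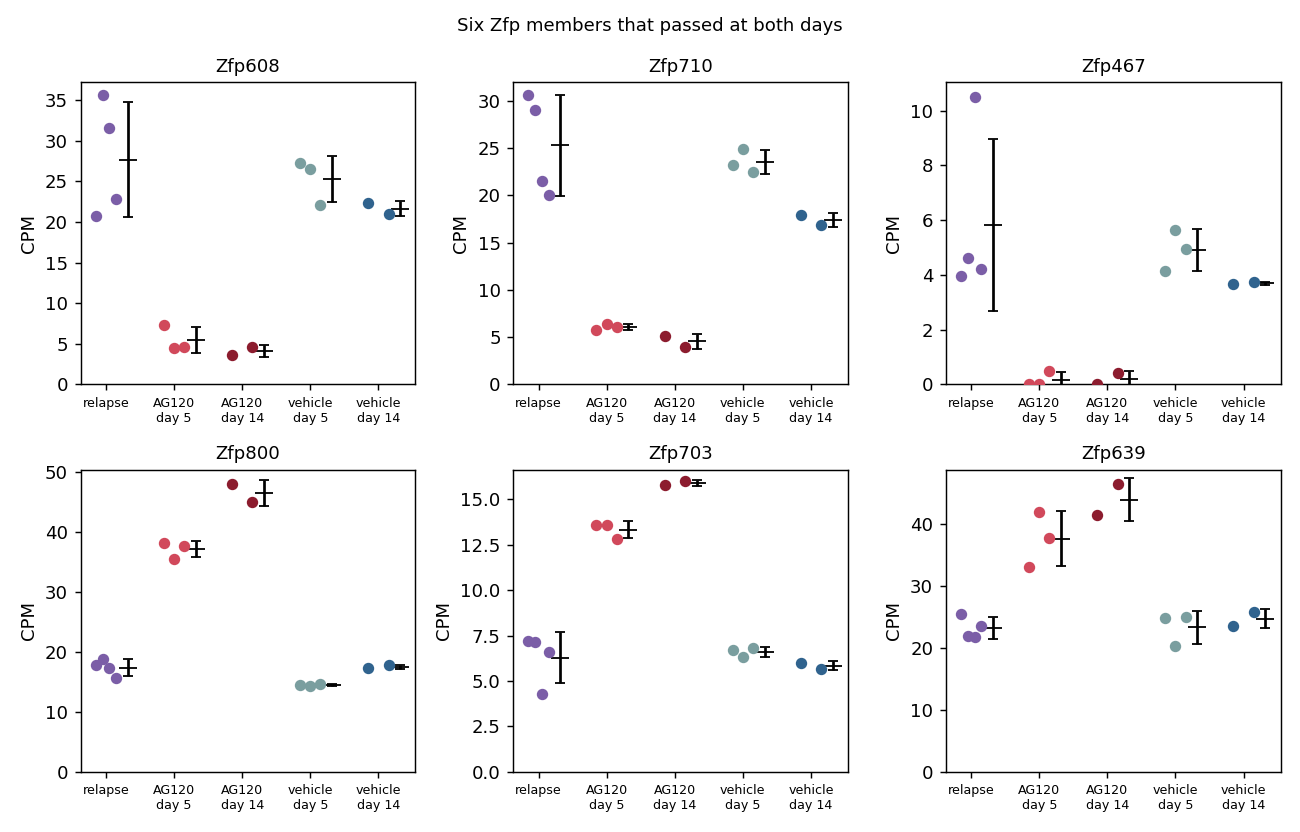
Level in CPM (y axes, linear, from 0) of 6 members in each library (points), with the group mean and SD beside the points. Zfp608, Zfp710 and Zfp467 are lower in all 5 AG120 libraries than in any vehicle library, and Zfp800, Zfp703 and Zfp639 are higher, while relapse libraries lie among or near the vehicle libraries, apart from Zfp467 at 10.5 CPM in replicate 3.

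Few members with a KRAB-like pattern passed as higher. Of 124 tested, 3 were higher and 23 lower at day 5, and 1 was higher and 27 lower at day 14. Of 126 without the pattern, 9 were higher and 25 lower at day 5, and 9 and 26 at day 14. Lower calls made up 18.5% with and 19.8% without the pattern at day 5, near the 19.3% of all genes. At day 14 they made up 21.8% and 20.6%, against 17.9% of all genes. Higher calls made up 2.42% and 7.14% at day 5 and 0.806% and 7.14% at day 14, below the 20.1% and 16.8% of all genes. The median log2 fold change was -0.39 with and -0.22 without the pattern at day 5, and -0.52 and -0.28 at day 14. By number of fingers, 27 of 128 members with 10 or more were lower and 3 higher at day 5, and 18 and 7 of 98 members with 3 to 9, and 3 and 2 of 24 members with 0 to 2. Members with the pattern are also the more weakly expressed ones, and the difference between these classes was not tested.

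Other zinc finger families were counted under the same minimum, beside 19.3% of all genes lower and 20.1% higher at day 5. At that day, 7 of 34 Zbtb genes were lower and 2 higher, 2 of 14 Zkscan and Zscan genes were lower and 1 higher, and of 145 other genes with at least 3 C2H2 fingers 35 were lower and 16 higher. Zc3h genes, which mostly bind RNA, had 1 lower and 4 higher of 17. By position, 12 of 62 tested members on chromosome 7 were lower and 2 higher at day 5, 6 and 0 of 31 on chromosome 17, and 4 and 0 of 25 on chromosome 13.

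**Figure D4:**
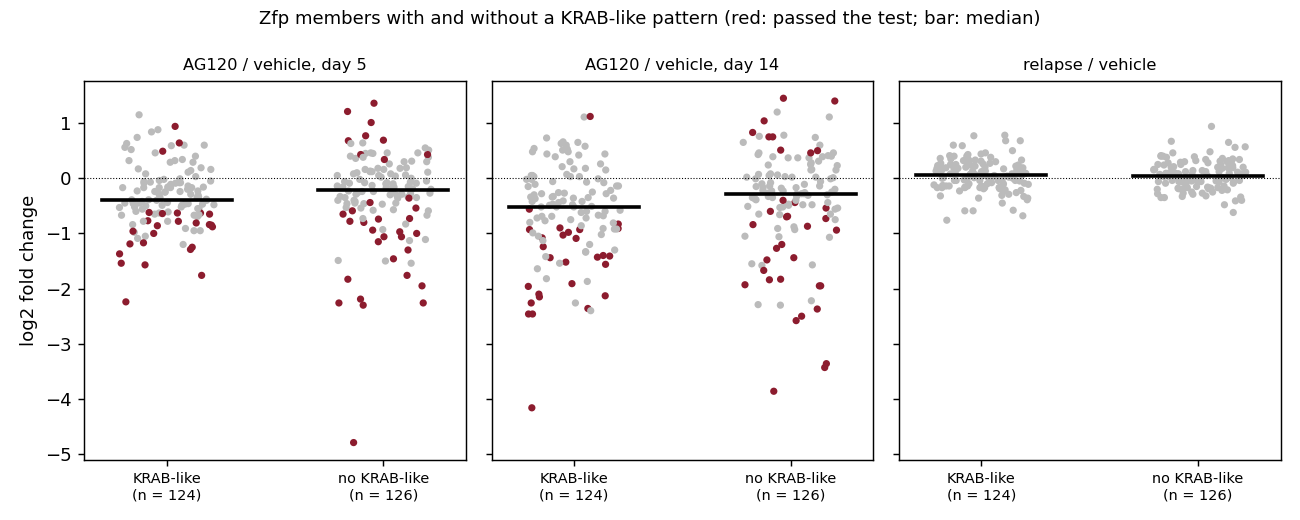
Log2 fold changes (y axis) of tested members with (n = 124) and without (n = 126) a KRAB-like pattern in 3 comparisons; red points passed the test, grey points did not, and bars are medians. The medians lie at -0.39 and -0.22 at day 5, -0.52 and -0.28 at day 14, and at 0.06 and 0.04 for relapse over vehicle, where 0 members passed.

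KRAB proteins act through corepressor and heterochromatin genes. Of 29 of these tested, 3 were lower and 3 higher at day 5 (20.7% called, against 39.4% of all genes), and 2 were lower and 1 higher at day 14 (10.3%, against 34.7%). Trim28, the hub of the pathway, chosen after its values were seen, averaged 64.7 ± 3.04 CPM in AG120 day 5 and 53.7 ± 5.01 CPM in vehicle day 5 (SD, n = 3 each) and did not pass (log2 fold change 0.27, SE 0.11, edgeR adjusted p = 0.073). The remodeller Chd3 had 34.3 to 51.8 CPM in AG120 day 5, against 134.0 to 146.0 CPM in vehicle day 5, and fell by 1.77 (SE 0.16) on the log2 scale; at day 14 it did not pass (-0.17, SE 0.19). Daxx, a chaperone of histone H3.3, rose by 0.85 (SE 0.15) at day 5 and 0.66 (SE 0.19) at day 14. Atrx and Smarcad1 fell by 0.52 (SE 0.11) and 0.50 (SE 0.16) at day 5, and Cbx5 and Hdac2 rose by 0.41 (SE 0.12) and 0.29 (SE 0.11).

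Of 20 genes listed as tied to blood lineages or to leukemia, 17 were members, and all 17 were tested. At day 5 Zfp217, Zfp467, Zfp608 and Zfp90 were lower and Zfp703 was higher; at day 14 these were joined by Zfp148 and Zfp36l2 as lower and by Zfp318 and Zfp410 as higher. These were 5 of 17 at day 5 and 9 of 17 at day 14, or 29.4% and 52.9%, against 39.4% and 34.7% of all genes. Zfp521, a factor of stem cells and early B cells, Zfp423 and Zfp462 had 23, 2 and 5 counts in all and were no members. Zfp217, which works with the corepressor CtBP, had 16.3, 17.8 and 22.2 CPM in AG120 day 5 and 22.4 and 13.6 CPM in AG120 day 14, against 32.6, 31.2 and 29.8 CPM in vehicle day 5 and 36.5 and 31.2 CPM in vehicle day 14. Its log2 fold change was -0.73 (SE 0.18, adjusted p = 0.00385) and -0.94 (SE 0.23, adjusted p = 0.00454), and the day 14 value was -0.60 with an adjusted p of 0.105 without AG120 day 14 replicate 2. Zfp90, with a KRAB-like pattern, had 1.98, 1.85 and 2.40 CPM in AG120 day 5 and 1.79 and 4.00 CPM in AG120 day 14, against 7.55, 5.53 and 5.61 CPM in vehicle day 5 and 6.89 and 5.53 CPM in vehicle day 14. It fell by 1.57 (SE 0.31) at day 5; the day 14 call (-1.03, SE 0.39, adjusted p = 0.0486) became -0.65 with an adjusted p of 0.285 when replicate 1 of AG120 was left out and -1.78 when replicate 2 was, and the call did not stand with DESeq2 (0.0733) or limma-voom (0.0983).

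Zfp410 is known from human and mouse erythroid cells as an activator of Chd4 that keeps fetal globin genes silent. It had 12.5, 11.9 and 14.2 CPM in AG120 day 5, against 15.8, 11.9 and 12.4 CPM in vehicle day 5, which overlapped. At day 14 it had 20.3 and 20.6 CPM in AG120, against 12.2 CPM in both vehicle libraries, a log2 fold change of 0.75 (SE 0.23, adjusted p = 0.0187); leaving out any of these 4 libraries gave an adjusted p of 0.0684 to 0.086. Chd4 itself, chosen for this link after the values were seen, had 429.0 and 510.0 CPM in AG120 day 14, against 385.0 and 422.0 CPM in vehicle day 14, and did not pass (log2 fold change 0.22, SE 0.15). Zfp148, which binds GC-rich promoters, fell by 0.40 (SE 0.14, adjusted p = 0.0301) at day 14, and without AG120 day 14 replicate 2 or vehicle day 14 replicate 1 the adjusted p was 0.196 and 0.2. Zfp318, needed for IgD on B cells, rose by 0.75 (SE 0.28, adjusted p = 0.0476) at day 14. That value was 0.50 without AG120 day 14 replicate 2 and 0.52 without vehicle day 14 replicate 2. The call was lost in 13 of 21 alternatives. Among these were DESeq2 (adjusted p = 0.0515), limma-voom (0.0521) and the replicate block (0.0787). Not passing at either day were Zfp36, Zfp36l1, Zfp110, Zfp281, Zfp335, Zfp385a, Zfp644 and Zfp91. Zfp385a, a factor of megakaryocytes in the mouse, had 2.86 to 3.81 CPM in AG120 day 5, against 3.87 to 4.29 CPM in vehicle day 5 (log2 fold change -0.33, SE 0.36). Zfp91, a target of thalidomide-like drugs in human cells, had 116.0 to 120.0 CPM in AG120 day 5, against 98.8 to 112.0 CPM in vehicle day 5 (log2 fold change 0.19, SE 0.10).

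The 3 members of the ZFP36 family differed in level and course. Zfp36l2, which in the mouse sustains blood stem cells and early erythroid progenitors, was the most abundant member of all. It had 128.0, 163.0 and 126.0 CPM in AG120 day 5, against 209.0, 165.0 and 179.0 CPM in vehicle day 5, and did not pass there (log2 fold change -0.40, SE 0.25, adjusted p = 0.226). At day 14 it had 77.3 and 78.5 CPM in AG120, against 209.0 and 215.0 CPM in vehicle, a log2 fold change of -1.44 (SE 0.32, adjusted p = 0.00366). Zfp36, known as tristetraprolin, had 6.86, 2.86 and 3.03 CPM in AG120 day 5 and 1.79 and 2.80 CPM in AG120 day 14, against 12.8, 6.30 and 5.83 CPM in vehicle day 5 and 11.1 and 12.4 CPM in vehicle day 14. It did not pass at either day (-0.93, SE 0.71, and -2.30, SE 1.01; adjusted p = 0.325 and 0.102). Zfp36l1 had 41.1, 34.4 and 34.5 CPM in AG120 day 5, against 34.0, 18.8 and 18.8 CPM in vehicle day 5, and did not pass either (0.63, SE 0.38).

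**Figure D5:**
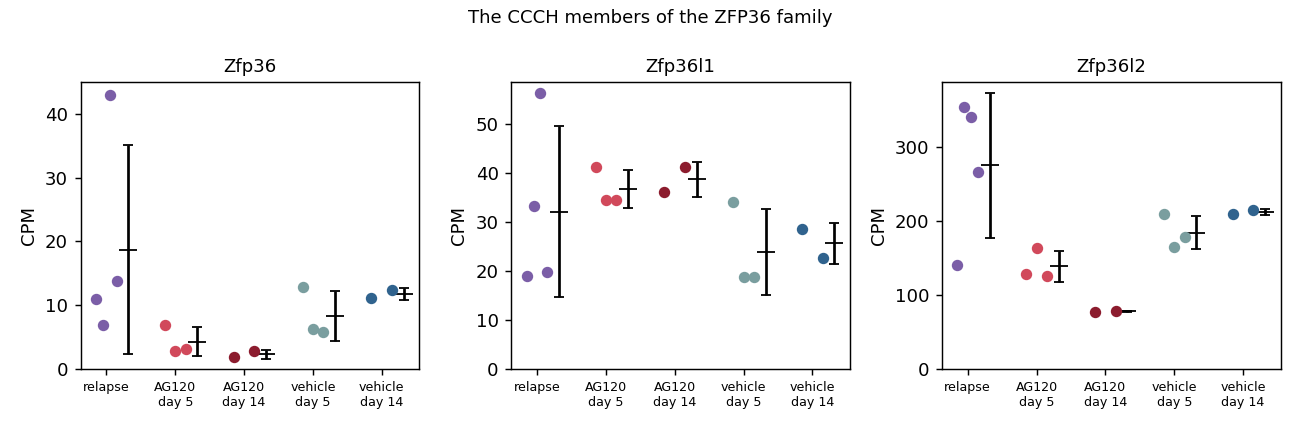
Level in CPM (y axes, linear, from 0) of the 3 CCCH members in each library (points), with group mean and SD beside the points. Zfp36l2 lies at 77.3 and 78.5 CPM in AG120 day 14, against 209.0 and 215.0 CPM in vehicle day 14, and Zfp36 reaches 42.9 CPM in 1 relapse library only.

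Partners and targets of the family were read beside it. Of 28 genes of deadenylation and mRNA decay, 4 were lower and 5 higher at day 5, and 3 were lower and 6 higher at day 14, or 32.1% called at each day, against 39.4% and 34.7% of all genes. Pabpc4, a poly(A)-binding protein that is high in erythroid cells, had 106.0 to 110.0 CPM in AG120 day 5, against 27.6 to 38.8 CPM in vehicle day 5, and rose by 1.66 (SE 0.15); Khsrp and Hnrnpd, which bind AU-rich elements, rose by 0.69 (SE 0.13) and 0.51 (SE 0.11). The deadenylase subunits Cnot6l and Cnot8 had passed as lower at both days, and Btg2 and Rc3h2 at day 5 only. Of 20 tested genes from a list of messages with AU-rich elements, 7 were lower and 1 higher at day 5, and 10 were lower and 0 higher at day 14. Of all genes tested, 19.3% were lower and 20.1% higher at day 5, and 17.9% were lower and 16.8% higher at day 14; the median log2 fold change of the list was -0.46 and -1.88, and it was not tested as a list. The 3 with the largest falls at day 5 were Tnf, Ccnd1 and Notch1. Tnf had 0.305, 0.336 and 0.479 CPM in AG120 day 5, against 7.26, 3.32 and 3.30 CPM in vehicle day 5; Ccnd1 had 6.25 to 7.73 CPM, against 44.5 to 49.8 CPM; and Notch1 had 0.609 to 0.958 CPM, against 4.27 to 6.41 CPM. Myc was the gene that rose at day 5, by 1.40 (SE 0.22), and it did not pass at day 14 (-0.33, SE 0.28).

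Of 11 members with roles in RNA handling or ribosomes, Zfp106, Zfp593 and Zfp622 were higher and Zfp326 lower at day 5, and Zfp598 was higher and Zfp326 lower at day 14 (36.4% and 18.2% called, against 39.4% and 34.7% of all genes). Zfp106, an RNA-binding protein that motor neurons need in the mouse, had 183.0, 157.0 and 169.0 CPM in AG120 day 5, against 96.1, 104.0 and 99.2 CPM in vehicle day 5, a log2 fold change of 0.77 (SE 0.16, adjusted p = 0.00134). At day 14 it had 146.0 and 150.0 CPM in AG120, against 124.0 and 101.0 CPM in vehicle, and did not pass (0.39, SE 0.20, adjusted p = 0.14). Zfp593 and Zfp622, both of which have yeast counterparts in assembly of the large ribosomal subunit, rose by 0.68 (SE 0.25, adjusted p = 0.0409) and 0.34 (SE 0.12, adjusted p = 0.0312). The Zfp593 call did not stand when any 1 of the day 5 or day 14 libraries was left out, and the Zfp622 call did not stand without AG120 day 5 replicate 1 (adjusted p = 0.139) or without vehicle day 5 replicate 1, 2 or 3 (0.062, 0.0632 and 0.109). Zfp598, the ubiquitin ligase that marks collided ribosomes, had 23.0 and 23.2 CPM in AG120 day 14, against 16.6 and 16.0 CPM in vehicle day 14 (0.50, SE 0.19, adjusted p = 0.046), which lay above 0.05 when any 1 of the AG120 or vehicle libraries was left out. Zfp326, which couples splicing to transcription, fell by 0.36 (SE 0.14, adjusted p = 0.0461) and 0.69 (SE 0.18, adjusted p = 0.00753); the day 5 call did not stand without any 1 of 8 libraries, and at day 14 the adjusted p was 0.054 without AG120 day 14 replicate 2.

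In relapse against the mean of both vehicle groups, 0 of 250 members passed, against 0.183% of all genes tested (0.100% higher and 0.0834% lower), and 16 members had an unadjusted p under 0.05 (edgeR); DESeq2 and limma-voom also called 0. Without relapse replicate 1 the count of higher members became 1, and without relapse replicate 3 that of lower members became 1. The median log2 fold change of members was 0.05, against 0.02 over all genes. A p above the threshold does not show that levels were equal: for Zfp608 the log2 fold change was 0.24 (SE 0.16), for Zfp710 0.31 (SE 0.13), for Zfp800 0.12 (SE 0.10) and for Zfp703 0.01 (SE 0.16).

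Against the mean of both AG120 groups, 89 members were higher in relapse and 24 lower, against a background of 54.0% called over all genes, 27.9% higher and 26.1% lower; of the members tested, 35.6% were higher and 9.6% lower. The median log2 fold change was 0.45, against 0.01 over all genes, and among the 133 members with 10 counts in all 14 libraries 43 were higher and 24 lower, with a median of 0.20. This comparison shares its AG120 libraries with those of treatment, so that the results are given side by side and not as support for each other. Of 68 members lower under AG120 at either day, 52 were higher in relapse than in AG120. Of 17 members higher under AG120, 13 were lower in relapse than in AG120. Both sets were picked on the AG120 libraries that are the reference here, so a reversal is partly built in. The same counts over all genes are not given here, and no trait of the members is read from these.

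Zfp710 had 30.6, 29.0, 21.5 and 20 CPM in relapse, above all AG120 libraries, with a log2 fold change of 2.27 (SE 0.16, adjusted p = 5.22e-09) over AG120. Zfp608 was 2.53 higher (SE 0.20, adjusted p = 1.98e-08), Zfp358 2.1 (SE 0.29) and Zfp260 1.82 (SE 0.25), all on the log2 scale. Zfp800 had 17.8, 18.9, 17.3 and 15.6 CPM in relapse and was lower than in AG120 by a log2 fold change of -1.26 (SE 0.10, adjusted p = 2.13e-08). Zfp703 (-1.22, SE 0.16), Zfp692 (-1.01, SE 0.17), Zfp874b (-0.89, SE 0.25), Zfp639 (-0.81, SE 0.11) and Zfp276 (-0.77, SE 0.17) were also lower in relapse than in AG120. Zfp692 had 9.26, 4.63, 8.12 and 6.23 CPM in relapse, against 12.6 to 16.1 CPM in the AG120 libraries, and had not passed at either day of treatment.

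Zfp36 varied widely in relapse, although none of its values there was among those flagged by Dixon's test below. It had 11.0, 6.95, 42.9 and 13.8 CPM there, so that replicate 3 alone was far above the rest, and its log2 fold change over AG120 was 2.56 (SE 0.61, adjusted p = 0.00463), or 1.74 without that library. In the same library Ier3, Tnf, Dusp1 and Fos had 113.0, 21.5, 27.1 and 25.0 CPM, each the highest of the relapse group. These are messages with AU-rich elements that are induced early by stimuli, chosen after their values were seen. Pim1, read beside them, went another way and was highest in relapse replicate 4, at 234.0 CPM. Zfp36l2 had 141.0, 354.0, 341.0 and 266.0 CPM in relapse, with replicate 1 inside the range of AG120 day 5, and its log2 fold change over AG120 was 1.40 (SE 0.21, adjusted p = 0.0001). Zfp36l1 had 18.9, 33.3, 56.4 and 19.8 CPM in relapse and did not pass against AG120 (-0.23, SE 0.31, adjusted p = 0.567).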

How the data were processed

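The deposited file is a table of raw counts, made by the authors, that lists 52636 Ensembl identifiers in rows and the 14 libraries in columns, whose names gave each library's sample. Per the submitters' processing notes, the tools were HISAT2 2.1.0, featureCounts of Subread 1.6.3, cutadapt 1.14, bcl2fastq 2.17.1.14, edgeR 3.28.1, limma 3.42.2 and R 3.6.2, with mm10 as the build. For use of strand, for reads that match several places and for molecular identifiers, the setting is not given in the sources used here.

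A GENCODE annotation of GRCm38, the assembly of mm10, supplied symbols and positions, which named 52489 identifiers. Counts were filtered with filterByExpr (minimum 10), TMM-scaled and fitted in edgeR 4.0.16 (R 4.3.3) with glmQLFit (robust) over all 14 libraries, 1 coefficient per group. Groups of 2 thus share the estimate of the spread (9 residual degrees of freedom, common dispersion 0.0291). P-values were adjusted by Benjamini-Hochberg over 11994 genes, with a threshold of 0.05. The SE of a fold change was its size divided by the square root of its F statistic. The 4 members under the filter, Zfp691, Zfp94, Zfp974 and Zfp934, were not tested. The fit was tested on simulated data. No pair of replicates agreed within sampling noise.

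The members and lists were chosen with earlier results of these data known. Named were the members listed for blood or RNA roles, the 6 highest and 6 lowest changes per comparison among members that passed whose mean log2 CPM reached 2, with no overlap between groups, and the 6 of highest level; other lists gave up to 3 genes per direction. Zfp184, Trim28, Chd4, Ier3, Dusp1, Fos and Pim1 fall outside this rule. Genes of like pattern, a further part of the rule, are not given, since the libraries fall into separate clusters. Alternatives were DESeq2 1.42.0, limma-voom (limma 3.58.1), RLE factors, no filter, fits on only the groups compared, ribosomal models left out, a replicate block, each library left out and, chosen after seeing the data, only members with 10 counts in all 14 libraries.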

Additional observations from a re-analysis of the deposited data

Results flagged for a closer look

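The 4 relapse libraries were read for single values that lay far from the rest. Of 45 relapse values examined, for named members, 4 were set apart by more than the 95% critical value of Dixon's test, and chance flags about 1 in 20 groups. Zfp467 had 10.5 CPM in relapse replicate 3, against 3.97 to 4.63 CPM in the other relapse libraries. Zfp276 had 4.13 CPM in relapse replicate 3, against 5.29 to 5.52 CPM. Zfp217 had 27.4 CPM in relapse replicate 1, against 38.1 to 39.2 CPM, and Zfp638 had 41.7 CPM in relapse replicate 1, against 76.3 to 80.3 CPM. Relapse replicate 1 was the low library for both of these members, and it also had the lowest share of counts on members in the relapse group, 0.688%.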

How the results depend on the processing

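Of 73 calls for named members, 49 held under every alternative, 24 did not in at least 1, and 0 reversed. Fitting only the groups compared gave 21 higher and 76 lower members at day 5, 1 higher and 3 lower in the difference between days, and 13 lower in relapse against AG120. Over all genes, that fit called 6558 at day 5, 854 in the difference and 5699 in relapse against AG120. The main fit called 4730, 112 and 6481 in the same order. With no filter there were 5 higher members at day 14, 1 lower in the difference and 14 lower in relapse against AG120. All genes called then numbered 3980, 374 and 6528 in that order, against 4159, 112 and 6481 in the main fit. Limma-voom gave 33 lower members at day 14, where it called 3638 of all genes. The 133 members with 10 counts in all 14 libraries, by construction fewer, gave 26 lower at day 5, 25 lower at day 14 and 43 higher in relapse against AG120. For the other shifts the cause was not tested.

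With 1 library left out, a lone library being assumed to vary like the other groups, day 5 gave 6 to 14 higher and 31 to 58 lower members, day 14 gave 5 to 12 higher and 24 to 58 lower, the difference 0 higher and 0 to 1 lower, relapse against vehicle 0 to 1 higher and 0 to 1 lower, and relapse against AG120 67 to 99 higher and 16 to 21 lower. At day 5, 6 were higher without AG120 replicate 1, 7 without vehicle replicate 2, and 31 lower without AG120 replicate 3. Those 3 fits called 3817, 3716 and 3739 of all genes at day 5, against 4730 in the main fit. At day 14, 5 were higher without AG120 replicate 1, AG120 replicate 2, vehicle replicate 1 or vehicle replicate 2, and lower members numbered 24, 30 and 33 without AG120 replicate 2, vehicle replicate 1 and vehicle replicate 2. In each of these day 14 fits, fewer of all genes were called than in the main fit. Without relapse replicate 1, 1 member was lower in the difference, where 153 of all genes were called, against 112 in the main fit.

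The main fit did not use the replicate numbers as pairs, and the check made on them cannot decide whether libraries were paired. Deviations of libraries with the same number correlated at 0.135, 0.0902 and -0.0209 at day 5, against -0.154 to 0.107 for different numbers. At day 14, with 2 libraries per group, deviations from the group mean mirror each other. The 0.0038 found there in both pairs is thus 1 value. With the number as a replicate block, day 5 gave 10 higher and 45 lower members, day 14 gave 7 and 47, and relapse against AG120 84 and 16. Depth limits the weak members. At 3 counts or fewer per group the fitted log2 fold change was not read as a size. For Zfp467 and Zfp184 the level was instead given as a percentage of vehicle with an exact interval.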
